A study of Drosophila melanogaster with 4 samples.

Results

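The let-7 complex of *Drosophila melanogaster* is a group of 3 microRNA hairpins, mir-100, mir-let7 and mir-125, carried by a single long non-coding transcript. Its 6 mature arms were followed in small RNA from heads: let-7-5p, miR-100-5p and miR-125-5p from the upstream side of each hairpin, and let-7-3p, miR-100-3p and miR-125-3p from the downstream side. Every distinct read that overlapped one of these arms over at least 15 nt without a mismatch was counted as a member. This gave 176 of the 5550 distinct sequences in the tables, in 6 of 523 arms. Wild-type male flies with the genotype label 5905 were raised at 25 °C and aged to 30 days or 3 days. Total RNA from their heads was either oxidized and β-eliminated or given the control treatment, before TruSeq small RNA libraries were made. The 4 groups are oxidized and not oxidized RNA at 30 days, and oxidized and not oxidized RNA at 3 days, with 1 library in each. The labels do not say how many heads went into a library. Ages follow the titles; the age characteristic disagrees with the title in 2 of the 4 libraries (the 3-day oxidized and the 30-day not oxidized). If that characteristic were right, both oxidized libraries would be from 30-day flies and both others from 3-day flies, and age and oxidation could not be told apart.

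let-7, miR-100 and miR-125 are ancient microRNAs, and in flies they come on together at the end of larval life and persist in the adult. let-7 and miR-125 are known for their part in the timing of the change from larval to adult form, and miR-125 also for the maintenance of the adult nervous system. A fly microRNA strand is loaded mostly into AGO1 or into AGO2. The methyltransferase Hen1 methylates the last ribose of small RNAs held by AGO2, and such an end survives periodate oxidation and β-elimination, while an unmodified end becomes unsuited to ligation.

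In the BDGP6 annotation the host transcript lncRNA:let7C (FBgn0263049) lies on the plus strand of chromosome 2L from 18455717 to 18473132 and has 3 exons. All 3 hairpins lie in its exon 2, with 500 nt between mir-100 and mir-let7 and 203 nt between mir-let7 and mir-125. The coordinates were looked up by gene name, since the tables give none and the submitters name another build, dm3. The reference sequence of each arm, shown because the counts of every arm rest on it, was read from the deposited tables, with T for U and with the seed (bases 2 to 8) in capitals.
let-7-5p: tGAGGTAGtaggttgtatagt
let-7-3p: cTATACAAtgtgctagctttct
miR-100-5p: aACCCGTAaatccgaacttgtg
miR-100-3p: cAAGACCGgcattatgggagtc
miR-125-5p: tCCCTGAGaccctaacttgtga
miR-125-3p: aCAAGTTTtgatctccggtat
The annotated arms span chr2L:18472044-18472064 for let-7-5p and chr2L:18472082-18472103 for let-7-3p. miR-100-5p spans chr2L:18471445-18471466 and miR-100-3p chr2L:18471484-18471505. miR-125-5p spans chr2L:18472343-18472364 and miR-125-3p chr2L:18472382-18472402. The 3 upstream arms have 3 different seeds, so no pair of them belongs to a seed family. Outside the seed, miR-100-5p and miR-125-5p share the run aacttgtg, which begins at position 15 of miR-100-5p and at position 14 of miR-125-5p. let-7-5p shares no run longer than 4 nt with either. let-7-3p and miR-100-3p begin with C, miR-100-5p and miR-125-3p with A, and let-7-5p and miR-125-5p with U.

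Some forms other than the references are named in the length results and are set out here. They share the 5′ start of their arm and differ at the 3′ end.
miR-125-5p of 21 nt: tCCCTGAGaccctaacttgtg
miR-125-5p of 24 nt: tCCCTGAGaccctaacttgtgact
miR-100-5p of 20 nt: aACCCGTAaatccgaacttg
let-7-5p of 19 nt: tGAGGTAGtaggttgtata
let-7-5p of 22 nt: tGAGGTAGtaggttgtatagta

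The tables held 12105527 oxidized and 17345816 not oxidized reads at 30 days, and 2091252 oxidized and 16112748 not oxidized reads at 3 days, a range of 8.29-fold. The let-7 complex took 0.958% and 0.693% of these at 30 days and 0.686% and 0.660% at 3 days. Levels are RPM, reads scaled per 1000000 reads of the library's own table, so an arm that fills much of a library lowers every other: miR-263a-5p alone had 504995 and 15345 RPM at 30 days and 316403 and 8551 RPM at 3 days, oxidized and not oxidized. With 1 library per group there is no replicate check and no p-value, and each comparison is of these libraries and not of the conditions. Intervals are exact Clopper-Pearson 95% intervals and cover the counting error of reads only, because each group is 1 library. The reads carry no molecular identifiers, so copies of the same molecule are counted as separate reads, and the intervals do not allow for this. Against the tissue label, 4 of 4 listed neuronal microRNAs were found, at 1143 and 6063 RPM in sum at 30 days and 1932 and 5203 RPM at 3 days, oxidized and not oxidized. Of 14 listed testis microRNAs, 13 were found, at a sum of 4.27 to 15.3 RPM. Of these 13, 5 had 0 reads in the oxidized and 1 in the not oxidized library at 30 days, and 6 and 1 at 3 days. The 1 listed muscle microRNA, miR-1-3p, was not found among the named arms, so muscle was not checked.

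The complex was made up differently in oxidized and in not oxidized RNA, with miR-125-5p leading in the oxidized libraries and let-7-5p in the others. In oxidized RNA miR-125-5p made up 69.6% of the complex's reads at 30 days and 55.7% at 3 days, and let-7-5p 16.1% and 22.2%. In RNA that was not oxidized let-7-5p, the best known of the 3, made up 78.4% at 30 days and 77.9% at 3 days, and miR-125-5p 17.2% and 18.2%. The composition differed more between ages in oxidized RNA, beyond counting error, than in the other libraries. These shares do not depend on how libraries are scaled. The order of the 6 arms was the same at both ages within each treatment, and no 2 neighbours in it had overlapping intervals. After oxidation it ran miR-125-5p, let-7-5p, miR-100-3p, miR-100-5p, let-7-3p and miR-125-3p from high to low. Without oxidation it ran let-7-5p, miR-125-5p, miR-100-5p, miR-125-3p, miR-100-3p and let-7-3p. How readily each sequence is ligated was not measured, so the order holds for reads and not for molecules in the cell.

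**Figure D1:**
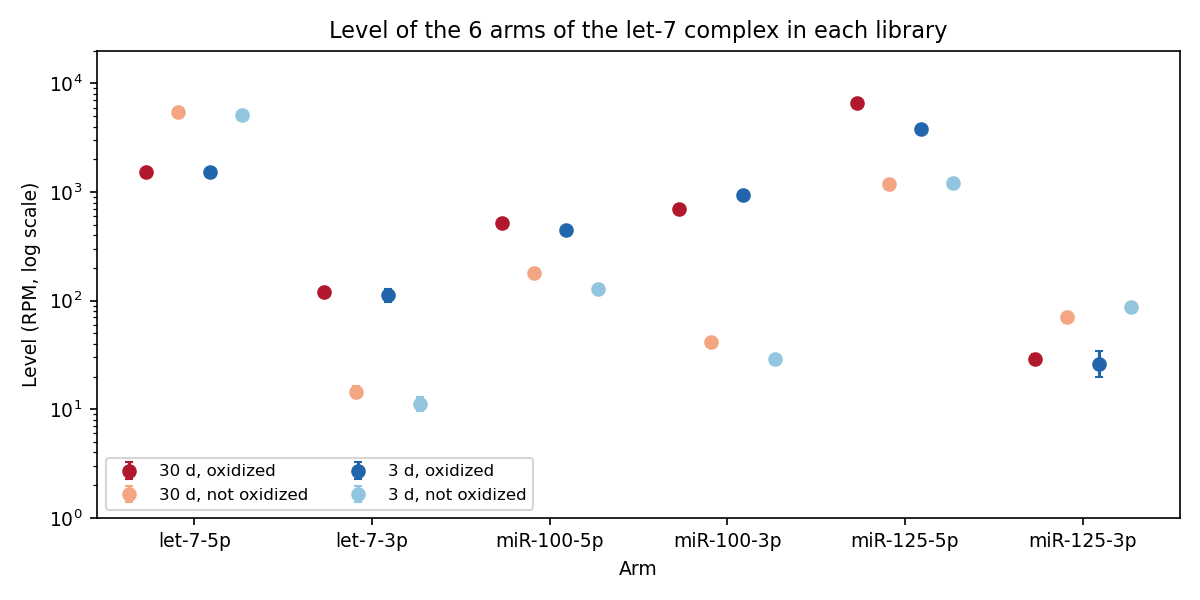
Level of each arm in RPM (log scale) in the 4 libraries, with exact 95% counting intervals, which are mostly smaller than the points. let-7-5p and miR-125-3p were lower in both oxidized libraries than in both others, and the other 4 arms were higher.

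The upstream arms of this single transcript went opposite ways with oxidation. let-7-5p had 1544 RPM in oxidized and 5433 RPM in not oxidized RNA at 30 days, and 1521 and 5137 RPM at 3 days. Both oxidized libraries were thus below both others, at log2 ratios of -1.81 (95% interval -1.84 to -1.79) at 30 days and -1.76 (-1.81 to -1.70) at 3 days. miR-125-5p had 6667 RPM in oxidized and 1195 RPM in not oxidized RNA at 30 days, and 3819 and 1204 RPM at 3 days. Its oxidized levels were far apart at the 2 ages, while its levels without oxidation were within 1.01-fold. miR-100-5p had 522 RPM in oxidized and 178 RPM in not oxidized RNA at 30 days, and 446 and 129 RPM at 3 days. Its log2 ratios were 1.55 (1.49 to 1.62) at 30 days and 1.79 (1.68 to 1.90) at 3 days, and those of miR-125-5p 2.48 (2.46 to 2.50) and 1.67 (1.63 to 1.70).

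The difference between arms does not depend on the scaling, since a scaling shifts all arms of a library by the same amount. miR-125-5p stood 4.30 log2 units above let-7-5p at 30 days (4.26 to 4.33) and 3.42 at 3 days (3.36 to 3.48). miR-100-5p stood 3.37 above let-7-5p at 30 days (3.30 to 3.44) and 3.55 at 3 days (3.43 to 3.67). Between miR-125-5p and miR-100-5p the difference was 0.93 at 30 days (0.86 to 0.99) and -0.13 at 3 days (-0.24 to -0.0094). With only the most abundant sequence of each arm miR-125-5p was above miR-100-5p at 3 days too, at 3.71 against 2.55. For miR-125-5p this sequence is the form of 21 nt, which led only in the oxidized libraries. The form of 22 nt, which led without oxidation, was at 0.28 at 3 days and so below miR-100-5p. For differences between ages in whole heads, fewer cells that hold a microRNA and less of it per cell cannot be told apart.

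Beside all arms, 4 members averaged 100 RPM or more over the libraries set side by side: the 3 upstream arms and miR-100-3p, which reached this level only through its oxidized libraries. At 30 days 3 of the 4 were at least 2-fold higher after oxidation, against 29.5% of 95 arms, and 1 of the 4 at least 2-fold lower, against 52.6%. At 3 days the members' counts were the same, against 35.7% and 43.9% of 98 arms. miR-100-3p had to be high after oxidation to enter; with 100 RPM required of the not oxidized library instead, 2 of 3 members were higher, against 21.5% of arms at 30 days and 25.5% at 3 days, and 1 of 3 lower, against 60.2% and 53.2%. The lower member is let-7-5p, which at 30 days was at -0.82 and short of 2-fold with miR-263a-5p out of the totals. The median arm was at log2 -1.28 at 30 days and -0.69 at 3 days. Counted from the highest ratio, miR-100-3p, miR-125-5p, miR-100-5p and let-7-5p ranked 5, 16, 22 and 56 of 95 at 30 days, and 7, 30, 29 and 75 of 98 at 3 days. let-7-5p, though lower, therefore lay near the middle of all arms at 30 days, 0.53 log2 units below the median arm.

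**Figure D2:**
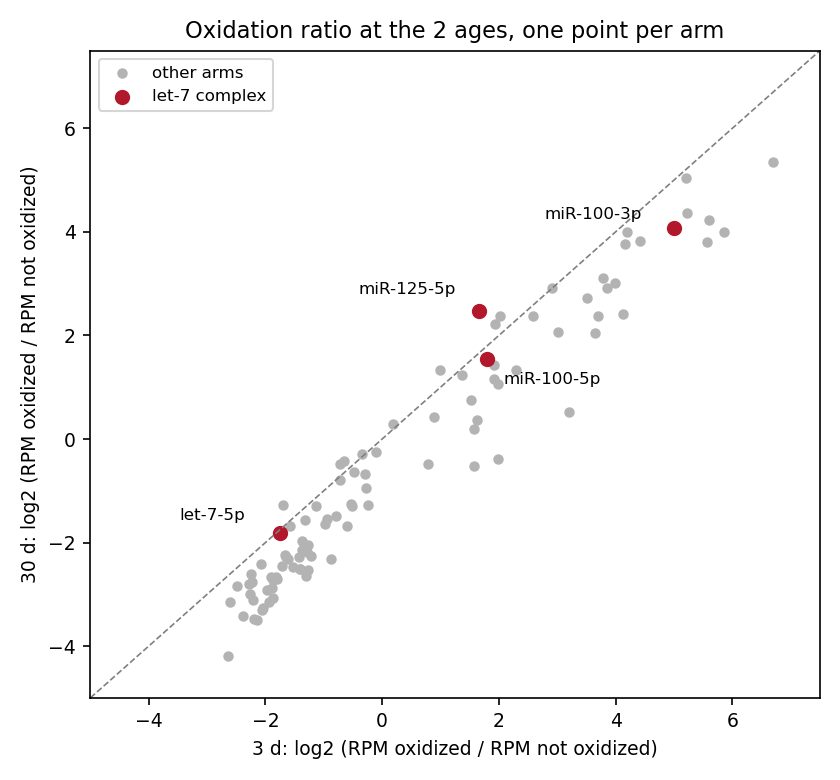
Oxidation ratio (log2 of oxidized over not oxidized RPM) of each of 98 arms at 3 days (x axis) and 30 days (y axis), with the 4 members above the level filter in red and the line of equal ratios dashed. As scaled here most arms, 89 of 98, lie below the line, miR-125-5p lies above it, and let-7-5p lies close to it. With TMM scaling 25 arms are below it, with median-of-ratios scaling 57, and with miR-263a-5p out of the totals 71. Each of these other scalings places let-7-5p above it, at 1.03, 0.64 and 0.40.

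The let-7 complex was one of 11 listed transcripts that carry several microRNAs; the list was written with earlier results of these data known. Of the 11, 7 at 30 days and 8 at 3 days had at least 2 arms above the level filter. The let-7 complex had the widest spread between its highest and lowest oxidation ratio among them, 4.30 log2 units at 30 days and 3.55 at 3 days. The next were the transcript of miR-34, miR-277 and miR-317 at 30 days, with 2.64, and that of miR-11 and miR-998 at 3 days, with 3.30, so that the lead at 3 days was small. The transcript of miR-11 and miR-998 was left out at 30 days by the level filter. There miR-998-3p was at 2.06 and miR-11-3p at -0.94, further apart than 2.64. The spread was taken over 3 arms in the let-7 complex and the miR-34 transcript, but over 2 in the miR-11 transcript. The transcript of miR-275 and miR-305 at 30 days, with 0.21, and that of miR-13a and miR-13b at 3 days, with 0.25, had the narrowest spreads.

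Of the downstream arms, the strands of a duplex that are usually discarded, miR-100-3p and let-7-3p had higher oxidation ratios than any upstream arm when all forms were summed. With only the most abundant sequence of each arm, miR-125-5p, at 4.16 at 30 days and 3.71 at 3 days, was above let-7-3p, at 2.83 and 3.28, and level with miR-100-3p at 30 days, at 4.16. That sequence of miR-125-5p, of 21 nt, led only in the oxidized libraries. The form of 22 nt, which led without oxidation, was at 0.15 and 0.28, below both downstream arms. miR-100-3p had 702 RPM in oxidized and 41.5 RPM in not oxidized RNA at 30 days, and 932 and 29.1 RPM at 3 days. It was 16.9-fold higher after oxidation at 30 days and 32.0-fold higher at 3 days. let-7-3p, counted in 249 and 181 reads of the 30-day and 3-day libraries without oxidation, had 119.9 RPM in oxidized and 14.4 RPM in not oxidized RNA at 30 days, and 112 and 11.2 RPM at 3 days. Its folds were 8.36 at 30 days and 9.96 at 3 days. It thus differed from its own partner let-7-5p in direction, by 4.88 log2 units at 30 days (4.68 to 5.07) and 5.07 at 3 days (4.79 to 5.36).

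miR-125-3p went the other way. It had 29.0 RPM in oxidized and 70.7 RPM in not oxidized RNA at 30 days, and 26.3 and 87.3 RPM at 3 days, the last oxidized value resting on 55 reads. It was 2.44-fold lower after oxidation at 30 days and 3.32-fold lower at 3 days, while its partner miR-125-5p was higher. The size at 30 days rests on the scaling: its log2 ratio was -1.29, against -0.59 with TMM scaling and -0.29 with miR-263a-5p out of the totals. In the mir-125 hairpin the upstream arm was thus the one over-represented after oxidation, in mir-let7 the downstream arm, and in mir-100 both.

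Within a hairpin these values can be read as the share of the downstream arm, which needs no scaling. let-7-3p made up 7.21% of its hairpin's reads in oxidized RNA (6.85 to 7.57) and 0.264% in not oxidized RNA (0.232 to 0.298) at 30 days, and 6.85% and 0.218% at 3 days. miR-100-3p made up 57.3% in oxidized RNA (56.5 to 58.1) and 18.9% in not oxidized RNA (17.7 to 20.2) at 30 days, and 67.7% and 18.5% at 3 days. It was the more abundant arm of mir-100 in both oxidized libraries and the less abundant one in both others. miR-125-3p made up 0.433% in oxidized RNA (0.389 to 0.481) and 5.59% in not oxidized RNA (5.29 to 5.90) at 30 days, and 0.684% and 6.76% at 3 days.

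**Figure D3:**
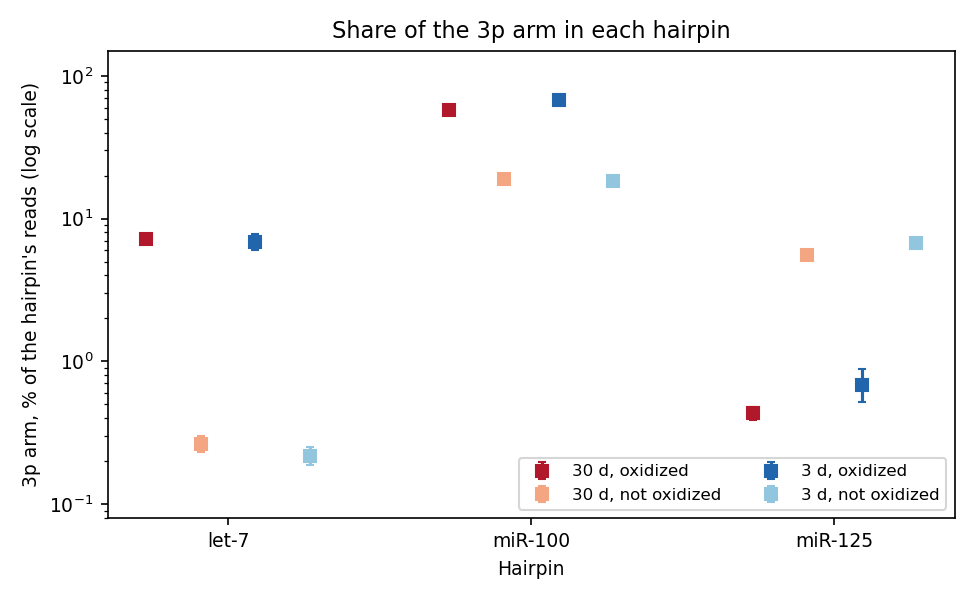
Share of the 3p arm among the reads of each hairpin (percent, log scale) in the 4 libraries, with exact 95% binomial intervals. In let-7 and miR-100 the share was higher in both oxidized libraries, and in miR-125 it was lower.

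The pairing of the 2 arms, predicted with RNAduplex from the reference sequences, also differed among the hairpins. The let-7 duplex had 17 base pairs at -21.3 kcal/mol, with bases 5 and 11 of let-7-5p unpaired inside it. The miR-100 duplex had 14 base pairs at -16.9 kcal/mol, with bases 10, 11, 15 and 16 of miR-100-5p unpaired inside it. The miR-125 duplex had 14 base pairs at -14.8 kcal/mol, with bases 5, 10, 12 and 13 of miR-125-5p unpaired inside it. The reference of miR-125-3p is the most abundant sequence and not the best partner, which reached -18.6 kcal/mol. The order of miR-100 and miR-125 by energy thus rests on the form chosen. The part of these features in the oxidation ratios was not tested.

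The oxidation ratio differed between 3′ ends of the same arm, most of all for miR-125-5p. Its form of 21 nt had 5804 RPM in oxidized and 324 RPM in not oxidized RNA at 30 days, and 2741 and 209 RPM at 3 days. That is 17.9-fold higher after oxidation at 30 days and 13.1-fold at 3 days. The form of 22 nt, longer by a single A and equal to the annotated arm, had 470 and 423 RPM at 30 days and 833 and 687 RPM at 3 days, oxidized and not oxidized. Its oxidized level was 1.11 times the other at 30 days and 1.21 times at 3 days, a direction that turned with TMM scaling at 3 days, so that the higher level of the whole arm in oxidized RNA lay almost wholly in the form of 21 nt. The form of 24 nt was lower in oxidized RNA, with 41.6 against 217 RPM at 30 days and 67.4 against 151 RPM at 3 days.

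The lengths of miR-125-5p therefore had different peaks in the 2 kinds of RNA. Reads of 21 nt made up 87.1% of the arm in oxidized RNA (86.9 to 87.3) and 27.4% in not oxidized RNA (26.8 to 28.0) at 30 days, and 71.9% and 17.6% at 3 days. Reads of 22 nt made up 7.11% in oxidized RNA and 36.4% in not oxidized RNA at 30 days, and 21.8% and 57.8% at 3 days. Reads of 23 nt or more made up 0.991% in oxidized RNA and 25.9% in not oxidized RNA at 30 days, and 2.70% and 20.6% at 3 days. The mean length was 21.02 nt in oxidized and 22.05 nt in not oxidized RNA at 30 days, and 21.23 and 22.20 nt at 3 days.

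**Figure D4:**
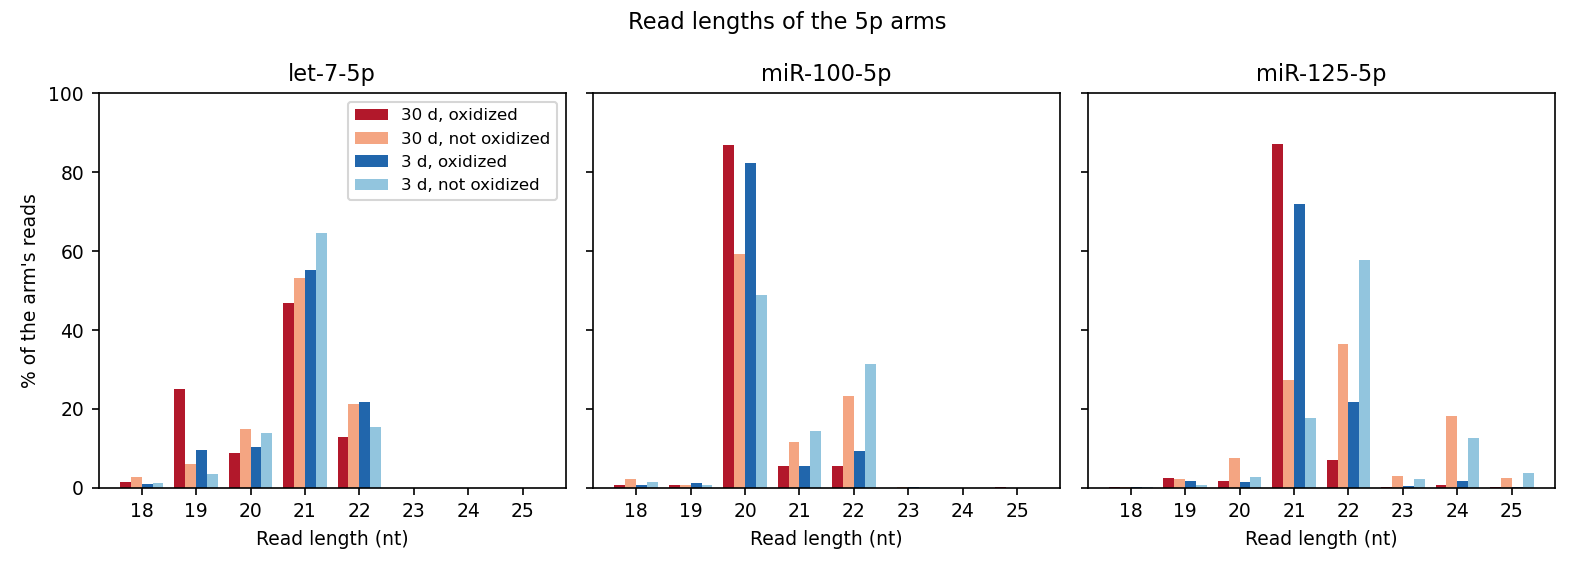
Percent of each 5p arm's reads at lengths of 18 to 25 nt in the 4 libraries. miR-125-5p peaked at 21 nt in both oxidized and at 22 nt in both other libraries, miR-100-5p peaked at 20 nt in all 4, and let-7-5p at 21 nt in all 4.

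miR-100-5p showed the same tilt towards a shorter form. Its form of 20 nt, shorter than the annotated arm, had 454 RPM in oxidized and 105 RPM in not oxidized RNA at 30 days, and 367 and 62.7 RPM at 3 days. It was 4.32-fold higher after oxidation at 30 days and 5.85-fold at 3 days. The annotated form of 22 nt had 28.4 and 41.3 RPM at 30 days, and 39.7 and 40.2 RPM at 3 days, oxidized and not oxidized. Its log2 ratio was -0.54 at 30 days (-0.73 to -0.35) and -0.019 at 3 days, where the interval (-0.37 to 0.31) includes 0; the value at 30 days was above 0 under each of the 3 other scalings. Reads of 20 nt made up 86.9% of the arm in oxidized RNA (86.0 to 87.7) and 59.3% in not oxidized RNA (57.5 to 61.0) at 30 days, and 82.3% and 48.9% at 3 days. The form of 20 nt ends inside the run shared with miR-125-5p, and the form of 21 nt of miR-125-5p ends at the last base of that run.

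let-7-5p behaved otherwise, with its annotated form of 21 nt the commonest in all 4 libraries. This form was at log2 -1.998 at 30 days (-2.03 to -1.97) and -1.98 at 3 days (-2.05 to -1.92). Of the 6 let-7-5p sequences that reached 2% of the arm in a library, only the form of 19 nt was not lower in oxidized RNA at 30 days; under the 3 other scalings the form of 17 nt was not lower either. It had 386 RPM in oxidized and 322 RPM in not oxidized RNA at 30 days, and 145 and 181 RPM at 3 days. Reads of 19 nt made up 25.0% of the arm in oxidized RNA (24.4 to 25.6) and 5.99% in not oxidized RNA (5.84 to 6.14) at 30 days, and 9.53% and 3.54% at 3 days. The 30-day oxidized library thus stood apart from the other 3 in the length of let-7-5p, with a mean of 20.29 nt against 20.79 to 20.86 nt.

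**Figure D5:**
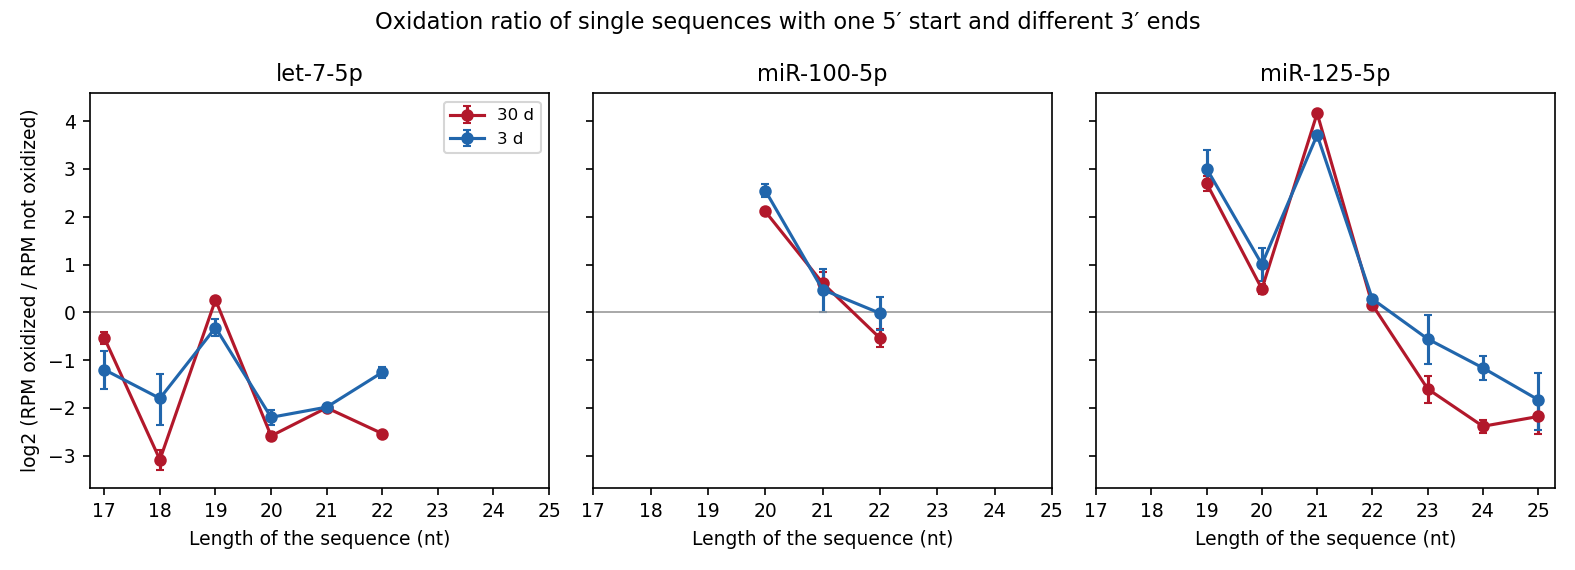
Oxidation ratio (log2 of oxidized over not oxidized RPM) of single sequences that share the arm's 5′ start, by length in nt, with exact 95% counting intervals; red is 30 days and blue 3 days, and sequences that reached 2% of the arm in no library, or had under 10 reads in a library compared, are left out. For miR-125-5p the ratio was highest at 21 nt, for miR-100-5p at 20 nt and for let-7-5p at 19 nt, at both ages, among the sequences shown.

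Against all arms, the dependence on the 3′ end was large for miR-125-5p and miR-100-5p. Between the 2 most abundant sequences of an arm the oxidation ratio differed by 4.01 log2 units for miR-125-5p at 30 days and 3.43 at 3 days. This ranked 7 of 95 arms at both ages, with a median over arms of 0.90 at 30 days and 0.68 at 3 days. For miR-100-5p the difference was 2.65 at 30 days and 2.57 at 3 days, ranks 17 and 15. For let-7-5p it was 0.54 and 0.73, and for miR-100-3p 0.11 and 0.14. Of 98 arms, 64 had a shorter mean length in the oxidized than in the not oxidized library at each age. The change was -1.03 nt for miR-125-5p at 30 days and -0.96 nt at 3 days, rank 6 from the most shortened at both ages. It was -0.33 and -0.47 nt for miR-100-5p, and -0.50 and -0.054 nt for let-7-5p, against a median of -0.16 and -0.094 nt. miR-100-3p was longer in oxidized RNA, by 0.21 nt at 30 days and 0.11 nt at 3 days.

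Without oxidation, the levels of the upstream arms were close at the 2 ages. At 30 days let-7-5p was at 1.06, miR-100-5p at 1.38 and miR-125-5p at 0.992 times its level at 3 days, and 0 of these 3 passed 2-fold, against 9.47% of 95 arms. Lengths differed more than totals. In miR-125-5p without oxidation the form of 21 nt was 1.55-fold higher, that of 20 nt 3.86-fold higher and that of 22 nt at 0.615 times its level, at 30 relative to 3 days, so that the total held shifts in opposite directions. In oxidized RNA the forms of 21, 20 and 22 nt were at 2.12, 2.70 and 0.565 times their level, the last above 1 with TMM scaling. In let-7-5p the form of 19 nt was 1.78-fold higher at 30 than at 3 days without oxidation and 2.66-fold higher with it. A shorter mean length at 30 days was the rule: 85 of 98 arms without oxidation and 86 of 98 with it were shorter. The change of mean length with age was -0.15 nt without and -0.22 nt with oxidation for miR-125-5p, near the medians of -0.14 and -0.16 nt, and -0.069 and -0.51 nt for let-7-5p.

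In oxidized RNA 5 members were above the level filter, and 0 of them passed 2-fold between 30 and 3 days, against 27.1% of 96 arms (0 higher and 26 lower). With median-of-ratios scaling miR-125-5p alone passed (log2 1.45), against 6.25% of arms higher and 11.5% lower. Without miR-263a-5p it alone passed too (1.27), against 3.13% higher and 14.6% lower. With TMM scaling 4 of the 5 passed, all higher, against 20.8% of arms higher and 4.17% lower. miR-125-5p had the highest ratio of all 96 arms, 1.75-fold (log2 0.80, 0.77 to 0.84), with a median arm at -0.65. let-7-5p was at 0.022, let-7-3p at 0.10, miR-100-5p at 0.23 and miR-100-3p at -0.41. The size of these values rests on the scaling: 3 other scalings raised every arm of this comparison by 0.47 to 1.02. Under them only miR-100-3p changed sign, to above 0. With only the most abundant sequence of each arm, let-7-5p and let-7-3p were below 0, at -0.21 and -0.15. The age change of the oxidation ratio, 30 minus 3 days, passed 2-fold in 0 of 4 members, against 29.6% of 98 arms (0 higher and 29 lower). With 100 RPM required of the not oxidized libraries instead, 0 of 3 members passed, against 31.6% of 95 arms. For miR-125-5p the age change was 0.82, but 1.90 with TMM scaling, 1.51 with median-of-ratios scaling and 1.27 without miR-263a-5p, past 2-fold in each. let-7-5p passed with TMM scaling, at 1.03. Of all arms 12.2% were past 2-fold higher and 2.04% lower with TMM scaling. With median-of-ratios scaling these shares were 4.08% and 6.12%, and without miR-263a-5p 1.02% and 8.16%. The rank of the age change, which no scaling moves, was 1 of 98 for miR-125-5p, 11 for let-7-5p, 22 for miR-100-5p and 61 for miR-100-3p. Within the complex, miR-125-5p in oxidized RNA was 1.72-fold higher relative to let-7-5p and 1.49-fold higher relative to miR-100-5p at 30 than at 3 days. Without oxidation it was at 0.938 and 0.718 times these relative levels.

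The arms whose levels followed each upstream member most closely over the 4 libraries were found by the root-mean-square distance of log2 RPM, each centred on its own mean, among 97 other arms. The points are 4 libraries, so this is a description. let-7-5p was closest to miR-278-3p (0.15), miR-8-3p (0.16) and miR-13b-3p (0.17). miR-100-5p was closest to miR-33-5p, at a distance of 0.065, then to miR-10-5p (0.25). miR-125-5p was closest to miR-10-5p (0.15) and miR-263b-5p (0.16), followed by miR-100-5p at 0.33. let-7-5p lay 1.74 from miR-100-5p and 1.95 from miR-125-5p. miR-10-5p, a relative of miR-100-5p by sequence, had 13893 and 2964 RPM at 30 days and 10642 and 2795 RPM at 3 days, oxidized and not oxidized, and so was higher after oxidation as miR-100-5p was. miR-993-3p, which was listed with it, had 45.7 and 514 RPM at 30 days and 142 and 629 RPM at 3 days, and was lower. The sequence of this downstream arm was not compared with that of miR-100-5p.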

How the data were processed

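Small RNA of fly heads was sequenced in 4 libraries, 1 per age and treatment, on a HiSeq2000 per the series' design text. The authors deposited for each library a table without a header, whose lines pair a read sequence with its raw count. The submitters' processing notes name CASAVA 1.8.2, Bowtie and the genome build dm3, with no role; adapter trimming and the choice of reads are not given in the sources used here. Repeated lines (65 to 165 sequences in a library) always carried an equal count (0 unequal) and were used once. A count of 0 allows up to 3 reads, or 0.248 and 0.173 RPM at 30 days and 1.43 and 0.186 RPM at 3 days, oxidized and not oxidized.

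The tables hold no names. Upstream arms of the complex were found by their 7 seed bases and the annotated length. Downstream arms were found as the best RNAduplex partner (ViennaRNA 2.7.2) among 219 to 225 sequences of the annotated length with at least 50 reads. The most abundant sequence of that length was then taken. Other arms were grouped by exact overlap of at least 15 nt and named by a motif of 9 nt from memory of the public catalogue (51 of 54 found), and those names were not checked otherwise. Bases beyond the reference could not be compared with the hairpin. The 241 sequences that fitted several members, or several other arms, held at most 0.00918% of a library. They went to the first listed member or to the most abundant other arm. A sequence that fitted a member was given to it without comparison with the other arms.

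Ratios are log2 of RPM, oxidized over not oxidized and 30 over 3 days, with exact intervals conditional on the summed count; those of differences use Poisson variances. An arm entered a comparison when it averaged 100 RPM or more over the libraries concerned and had 50 reads or more in all; 2-fold was the size threshold, and ratios per sequence needed at least 10 reads in each library. The functions were tested on simulated data. Other scalings were TMM (edgeR 4.0.16), median-of-ratios, and totals without miR-263a-5p. Arms named are the 6 members, the 3 nearest arms of each upstream member, the listed transcripts and the sequence relatives. The members and lists were chosen with earlier results of these data known.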

Additional observations from a re-analysis of the deposited data

Results flagged for a closer look

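Some results went opposite ways under the same comparison in the 2 treatments or at the 2 ages, with counting intervals that exclude 0 on both sides. None of these differences was tested, since each group is 1 library. miR-100-3p was at log2 -0.41 at 30 relative to 3 days in oxidized RNA and at 0.51 in not oxidized RNA, and its form of 22 nt at -0.45 and 0.45. The form of 22 nt of let-7-5p was at -0.73 in oxidized and 0.55 in not oxidized RNA, and its form of 20 nt at -0.21 and 0.18. The form of 24 nt of miR-125-5p was at -0.70 in oxidized and 0.53 in not oxidized RNA. The 3 values of miR-100-3p, its form of 22 nt and let-7-5p of 20 nt in oxidized RNA were above 0 under each of the other 3 scalings, and those of let-7-5p of 22 nt and miR-125-5p of 24 nt were above 0 under TMM. Values without oxidation kept their sign under all 3.

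The form of 19 nt of let-7-5p was at log2 0.26 after oxidation at 30 days and at -0.32 at 3 days. The value at 30 days kept its sign under the other 3 scalings, and that at 3 days was above 0 with miR-263a-5p out of the totals.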

How the results depend on the processing

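The direction of the oxidation ratio was kept by all 6 arms at both ages under every alternative run. Values follow as let-7-5p, miR-100-5p and miR-125-5p, in log2 units. At 30 days they were -1.12, 2.25 and 3.17 with TMM scaling, -1.16, 2.21 and 3.14 with median-of-ratios scaling, and -0.82, 2.55 and 3.47 without miR-263a-5p in the totals. At 3 days they were -2.15, 1.40 and 1.27 with TMM scaling and -1.22, 2.33 and 2.20 without miR-263a-5p. With only the most abundant sequence of each arm they were -1.998, 2.11 and 4.16 at 30 days and -1.98, 2.55 and 3.71 at 3 days. For miR-125-5p this sequence, of 21 nt, led only in the oxidized libraries. Its form of 22 nt, which led without oxidation, was at 0.15 at 30 days and 0.28 at 3 days. With reads of 20 to 24 nt only, let-7-5p and miR-125-5p were at -2.20 and 2.55 at 30 days and at -1.86 and 1.73 at 3 days. With an overlap of at least 18 nt, let-7-5p was at -1.86 at 30 days. Under the 3 other scalings the downstream arms let-7-3p, miR-100-3p and miR-125-3p were at up to 4.05, 5.07 and -0.29 at 30 days, and at 3 days at 2.92 to 3.85, 4.60 to 5.54 and -2.13 to -1.19. The differences from let-7-5p, of miR-100-5p and then miR-125-5p, were 3.44 and 4.34 at 30 days with that overlap. With reads of 20 to 24 nt they were 3.805 and 4.74 at 30 days and 3.69 and 3.59 at 3 days. With the most abundant sequence only they were 4.11 and 6.16 at 30 days and 4.53 and 5.70 at 3 days.

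With a filter of 10 RPM, 45 arms were at least 2-fold higher and 78 lower after oxidation at 30 days, and 62 higher and 72 lower at 3 days. With that filter 48 arms passed 2-fold between ages in oxidized RNA and 57 in the age change. With median-of-ratios scaling these were 17 and 10, and with TMM scaling 14 passed in the age change. The age change of let-7-5p, let-7-3p and miR-100-5p was below 0 as reported and above 0 under each other scaling (1.03, 0.83 and 0.85 with TMM). The cause was not tested. A match of whole reads to the hairpin was not run. Depth limits the 3-day oxidized library most, where miR-125-3p rests on 55 reads.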

Other observations

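The 5′ ends of the complex were more uniform than its 3′ ends. In let-7-5p, let-7-3p and miR-100-3p at least 98.75% of the reads of each library began at the first base of the reference. miR-125-5p began there in 99.5% of its reads in oxidized RNA and 97.1% in not oxidized RNA at 30 days, and in 99.4% and 97.4% at 3 days. For miR-100-5p the shares were 98.4% and 93.4% at 30 days and 97.3% and 93.7% at 3 days, oxidized and not oxidized.

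miR-125-3p was the least uniform, with 87.7% of its reads at the first base in oxidized RNA (83.9 to 91.0) and 78.96% in not oxidized RNA (76.6 to 81.2) at 30 days, and 92.7% (82.4 to 98.0) and 78.2% (76.0 to 80.4) at 3 days. The intervals of the 2 treatments did not overlap at either age. One form of 23 nt begins 2 bases earlier and has another seed, and had 11 reads in oxidized and 95 in not oxidized RNA at 30 days, and 3 and 96 at 3 days. A form of 21 nt with the same early start had 5 and 65 reads at 30 days, and 0 and 63 at 3 days.

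let-7-3p was mostly of 22 nt, at 76.0% in oxidized and 89.6% in not oxidized RNA at 30 days and 90.6% and 92.8% at 3 days. The 30-day oxidized library, in which let-7-5p had its largest share of 19 nt reads, also had the lowest share here. miR-100-3p was of 22 nt in 92.9% and 88.8% of its reads at 30 days and in 95.4% and 91.9% at 3 days, oxidized and not oxidized.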
